A study of Mus musculus with 38 samples.

Results

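The genes described here encode the subunits of voltage-gated sodium channels, of voltage-gated calcium channels and of the hyperpolarization-activated HCN channels. They were chosen by symbol alone, as every gene whose symbol begins with Scn and a digit, with Cacna, Cacnb or Cacng, or with Hcn and a digit. This gave 44 of the 23420 genes counted, in 9 classes by role. The classes are 10 Nav alpha subunits, 4 Nav beta subunits, 4 Cav1, 3 Cav2 and 3 Cav3 alpha1 subunits, 4 alpha2delta subunits, 4 Cav beta subunits, 8 gamma subunits and 4 HCN channels.

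The libraries came from the dentate gyrus of male adult mice on a C57BL/6J background that carried the Arc::dVenus transgene, in which the promoter of the activity-regulated gene Arc drives a destabilized yellow fluorescent protein. All mice of all groups carried this reporter, so a dVenus+ cell is one with recent activity of that promoter rather than one shown to hold a memory. The training histories were fear conditioning (FC, tones and foot shocks in a conditioning chamber, 12 mice), no shock (NS, the same chamber and tones without shock, 4 mice) and home cage (HC, untrained, 3 mice), with FC and NS cells collected the day after the session. From each mouse, 10 dVenus+ cells and 10 neighbouring dVenus- cells of the granule cell layer were aspirated as nucleated patches and each pool was made into 1 library, which gave 38 libraries. Because a library pools 10 cells, fewer cells that express a gene and less of its RNA per cell cannot be told apart.

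Voltage-gated sodium channels carry the upstroke of the action potential: the alpha subunit forms the pore, and the beta subunits, single-pass membrane proteins with an immunoglobulin-like domain, modify its gating, its surface level and its contacts with other molecules. Calcium channels are built on an alpha1 pore, with Cav1 (L-type) channels coupling depolarization to signalling in the soma and dendrites, Cav2 (P/Q-, N- and R-type) channels opening mainly at nerve terminals and spines, and Cav3 (T-type) channels opening near the resting potential. Alpha2delta and Cav beta subunits bring the pore to the membrane, while several gamma subunits are better known as transmembrane regulators of AMPA receptors (TARPs). HCN channels pass the inward current that hyperpolarization evokes and that sets the resting properties of many neurons.

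Values are given as normalised CPM, which is counts per 1000000 reads on genes after TMM scaling over all 38 libraries, and levels are compared between genes only as normalised CPM per kilobase of exon. Differences are log2 fold changes of dVenus+ over dVenus- within mouse from edgeR's quasi-likelihood test, with their standard error (SE) and a p-value adjusted by Benjamini-Hochberg over all genes tested in that history. A gene was called when the adjusted p was under 0.05 and the log2 fold change was over 1 in size.

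The libraries held between 1352288 and 18394761 reads on genes, with medians of 7080448 in FC dVenus+ and 9955727 in FC dVenus- libraries. Among FC libraries, the dVenus+ libraries of mice 5, 7 and 14 had the lowest TMM factors, down to 0.338, and the lowest of all was 0.305, in the HC dVenus+ library of mouse 16. Arc, the gene whose promoter drives the reporter, ranged from 476.7 to 1539 normalised CPM in FC dVenus+ and from 0 to 171.9 in FC dVenus- libraries, and was below 5 in every NS and HC dVenus- library. Summed, 7 granule cell markers were at a lower level on the dVenus+ side in 12 of 12 FC, 4 of 4 NS and 3 of 3 HC mice, with medians of 384.7 and 1146 normalised CPM in FC, and 4 of the 7 (C1ql2, Calb1, Plk5 and Stxbp6) were called lower in FC. The 6 microglial markers summed to a median of 101.9 in FC dVenus+ and 12.7 in FC dVenus- libraries and were higher in 10 of 12 mice, with C1qa and Csf1r called higher. The 6 interneuron markers summed to between 15.2 and 403.8 in FC dVenus+ and between 29.5 and 2482 in FC dVenus- libraries. Their sum was lower in dVenus+ cells in 9 of 12 mice, and 1 gene, Gad1, was called lower. By gene the direction differed: Gad1 was lower in 11 of 12 mice and Pvalb in 7. Gad2 was higher in 7, Sst was higher in 6 and lower in 2, and Slc32a1 was higher in 3 and lower in 1. The highest sum was in the dVenus- library of mouse 10. Vip was at 0 in all FC dVenus- libraries and at 111.2 in the dVenus+ library of mouse 14. No marker of oligodendrocytes or astrocytes was called in FC.

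In FC mice, 3 channel genes were lower in dVenus+ than in dVenus- cells: the sodium channel beta subunits Scn2b and Scn3b and the T-type calcium channel Cacna1h. No channel gene was higher at the same threshold, as 1.5% of all genes were, although 1 was called higher by edgeR without mouse 4 and 1 by DESeq2's Wald test over all 12 mice. Of all genes, 143 of 9828 and 559 of 9709 were called higher in these fits. The 3 calls were among 24 channel genes tested (12.5%), beside 422 called of all 9709 genes tested (4.35%), of which 276 were lower (2.84%). At an unadjusted p under 0.05, 7 of the 24 channel genes (29.2%) stood beside 17.8% of all genes. Of the 24, 15 had a log2 fold change below 0, as did 54.1% of all genes, and the median of the channel genes was -0.46 beside -0.11 for all genes. Scn2b was the 1 channel gene of the 24 (4.17%) that was lower in dVenus+ cells in each FC mouse, beside 1.09% of all genes. In no channel gene were the FC groups free of overlap, beside 0.0309% of all genes with dVenus+ lower and 0.0927% with dVenus+ higher.

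**Figure D1:**
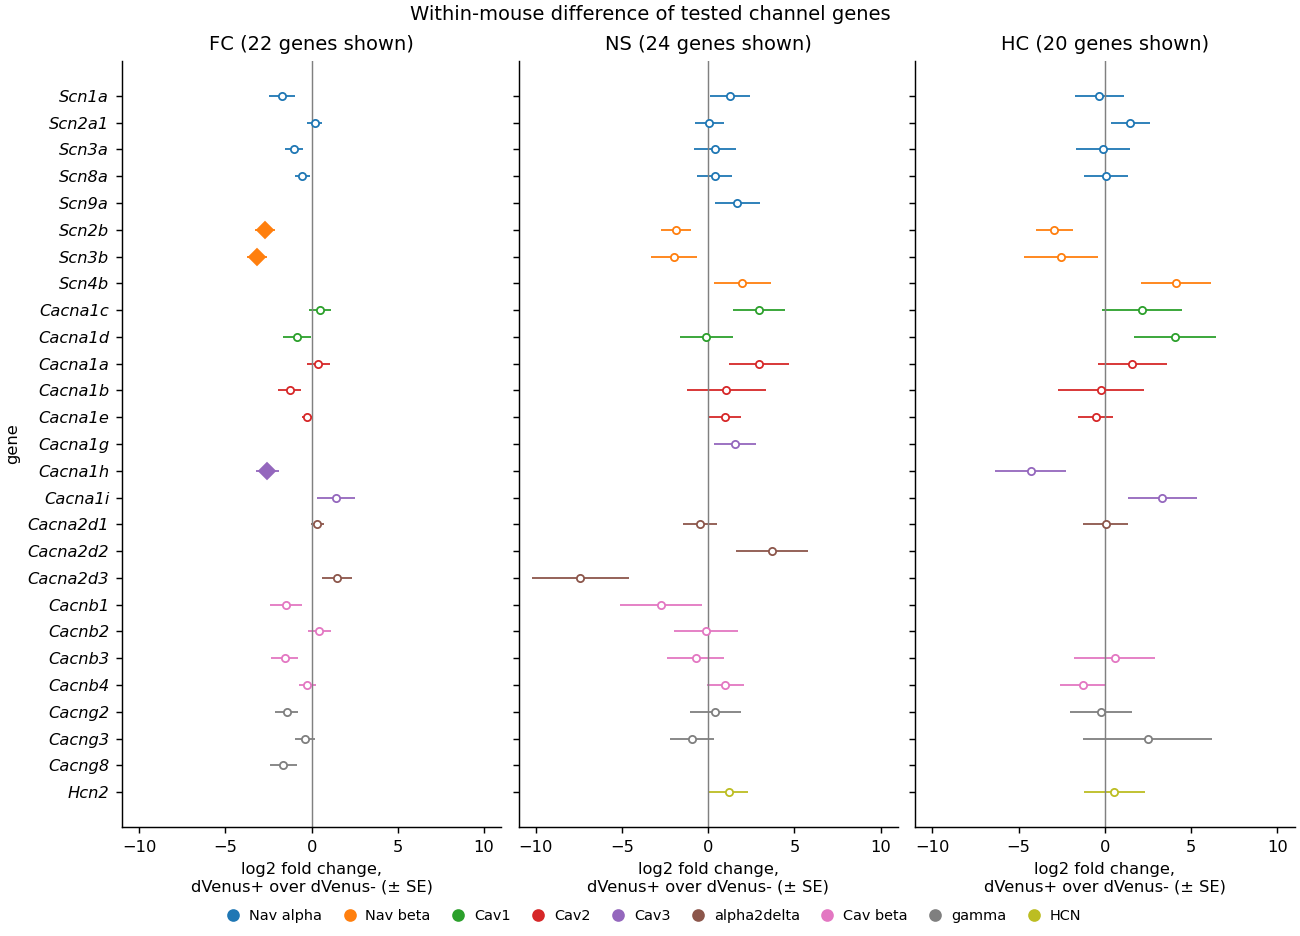
Log2 fold change of dVenus+ over dVenus- within mouse for the channel genes tested and reported, by class and in FC, NS and HC, with bars of 1 SE. Filled diamonds are called genes and open circles are not called. The 3 filled diamonds, at -2.71, -3.16 and -2.57, are Scn2b, Scn3b and Cacna1h in FC.

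In NS mice 0 of 26 channel genes tested were called, beside 4 of 8187 genes (0.0489%, made up of 0.0122% lower and 0.0366% higher), and 2 channel genes had an unadjusted p under 0.05 (7.69%, with 8.67% of all genes). In HC mice 0 of 22 were called, beside 0 of 7588 genes (0%), and 1 channel gene had an unadjusted p under 0.05 (4.55%, with 7.01% of all genes). The log2 fold change was below 0 for 9 of 26 channel genes in NS (48% of all genes) and for 10 of 22 in HC (49.6% of all genes), with medians of 0.68 and 0.05. By DESeq2's Wald test 1 of 26 channel genes in NS and 2 of 22 in HC passed, beside 671 of 8187 and 625 of 7588 of all genes. With 4 and 3 mice these comparisons have less precision than that of FC. On simulated data, the NS fit recovered 2 of 89 genes with a true log2 fold change of 3 in size. The HC fit recovered 3 of 95. Counts of 0 thus do not show that no channel gene differed. Likewise, a call in FC alone does not show that the histories differ. The difference itself was tested in 1 fit of all libraries. No FC library shares a series of sample ID numbers with an NS or HC library, so history and series cannot be told apart in it. By edgeR, 0 of 36 channel genes passed for a difference in dVenus response between FC and NS or between FC and HC (0 of 14075 genes in each). In each of these comparisons 3 channel genes (8.33%) had an unadjusted p under 0.05, beside 8.18% of all genes for FC against NS and 9.26% for FC against HC. DESeq2 called 3 and 2 of the 36, beside 1203 and 1573 of all 14075 genes.

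Across the 44 genes, 18 had enough counts to be tested in all 3 histories, 15 were tested in none, and Scn11a and Cacng1 had no count in any library. The 15 untested genes include the muscle channels Scn4a and Cacna1s, the sensory neuron channel Scn10a and the HCN channels Hcn3 and Hcn4. As a share of all reads on genes, the 44 genes together made up between 0.0707% and 0.25% of FC dVenus+ libraries and between 0.156% and 0.431% of FC dVenus- libraries, lower in dVenus+ in 11 of 12 mice, mouse 9 being the exception. The share was lower in 3 of 4 NS mice and in 3 of 3 HC mice. These shares are without TMM scaling, and on library totals the typical gene was lower in dVenus+ too. The median log2 fold change of all genes was then -0.46 in FC, -0.47 in NS and -0.81 in HC. That of the channel genes tested was -0.75, 0.15 and -0.80.

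Scn2b encodes the beta2 subunit, which is linked to the alpha subunit by a disulfide bond. The gene lies on chromosome 9 from 45117782 to 45130070 on the plus strand of GRCm38. In FC mice it ranged from 1.684 to 90.62 normalised CPM in dVenus+ libraries, with a median of 31.61, and from 63.04 to 308.5 in dVenus- libraries, with a median of 181.1. The ranges of the groups overlapped, but the dVenus+ library was the lower in each of the 12 mice. Scn2b was 6.53-fold lower in dVenus+ cells (log2 fold change -2.71, SE 0.56, adjusted p = 0.00512 by edgeR's quasi-likelihood test).

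The same gene was lower in every NS and HC mouse too. In NS mice 18 to 21 it was at 78.7, 194.1, 49.42 and 51.85 normalised CPM in dVenus+ libraries and at 473.8, 294.8, 247.2 and 191.4 in dVenus- libraries. The levels overlapped by a single library, since the dVenus+ value of mouse 19 exceeded the dVenus- value of mouse 21. In the 3 HC mice it was at 56.23, 36.75 and 84.74 in dVenus+ libraries and at 444.8, 518.3 and 254.6 in dVenus- libraries, with no overlap, as held for 5.92% of the genes tested in HC. The log2 fold change was -1.87 (SE 0.87, edgeR adjusted p = 0.562) in NS and -2.93 (SE 1.07, edgeR adjusted p = 0.677) in HC, so neither passed the test. The test of the difference gave -0.88 between FC and NS (edgeR adjusted p = 0.866) and 0.03 between FC and HC (edgeR adjusted p = 1). Scn2b was 1 of 20 genes that were lower in dVenus+ cells in all 19 mice, of 6621 genes tested in every history (0.302%), and the only 1 of the 18 channel genes tested in all of them.

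Scn2b is also the single called channel gene with an entry in the RefSeq promoter table used here. Its sequence just upstream of the annotated gene, chr9:45117626-45117781 on the plus strand of GRCm38.p6, is shown because Scn2b is the channel gene with the most uniform direction over mice.

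Scn2b upstream sequence: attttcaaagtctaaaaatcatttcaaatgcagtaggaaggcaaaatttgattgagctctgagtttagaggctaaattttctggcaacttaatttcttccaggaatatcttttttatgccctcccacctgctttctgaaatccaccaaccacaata

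This stretch of 156 bases was 35.3% G or C. The full window of 250 bases before the RefSeq start was at 38.4%, with a median of 52.4% over 32851 promoters. Searched on both strands, the window held none of 4 motifs, so no letter is in capitals: the full cAMP response element TGACGTCA (in 1.55% of all promoters), its first letters TGACG (17.8%, an overlap with the former), the GC box GGGCGG (32.7%) and the TATA box TATAAA (12.4%). Of 43 promoter windows of the channel genes, 0 held TGACGTCA, 6 held TGACG, 17 held GGGCGG and 2 held TATAAA. These counts describe the letters in the windows only.

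Scn3b encodes the beta3 subunit, which binds the alpha subunit without a covalent bond, and lies on the same chromosome from 40269217 to 40291618 on the plus strand. In FC mice it ranged from 0.505 to 191.9 normalised CPM in dVenus+ libraries, with a median of 38.62, and from 137.8 to 468.1 in dVenus- libraries, with a median of 266.4. It was lower in dVenus+ cells in 11 of 12 mice, and in mouse 7 the values were 191.9 and 186.0. Scn3b was 8.93-fold lower (log2 fold change -3.16, SE 0.57, edgeR adjusted p = 0.00128), the largest fall among the channel genes called.

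In NS mice 18 to 21 Scn3b was at 60.78, 37.81, 55.48 and 1.635 normalised CPM in dVenus+ libraries and at 66.73, 450.4, 25.27 and 285.5 in dVenus- libraries, lower in dVenus+ cells in all but mouse 20. In the 3 HC mice it was at 7.132, 0 and 118.7 in dVenus+ libraries and at 240.8, 0 and 133.8 in dVenus- libraries. Mouse 16 thus had no read of the gene in either library. The log2 fold change was -1.97 (SE 1.34, edgeR adjusted p = 0.673) in NS and -2.53 (SE 2.15, edgeR adjusted p = 0.780) in HC. These values rest on single mice: in NS they lay between -0.77 without mouse 21 (-0.98 without mouse 19) and -3.45 without mouse 20, and in HC between -0.31 without mouse 15 and -5.28 without mouse 17.

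Scn4b, the beta4 subunit and, like beta2, disulfide-linked, was too sparse to be tested in FC, with 2 counts or fewer in all FC libraries but the dVenus- library of mouse 11, which had 65. In HC its counts were 31, 26 and 248 in dVenus+ and 0, 24 and 2 in dVenus- libraries, and its dVenus+ levels lay above all dVenus- levels, as did those of 9.17% of the genes tested in HC. DESeq2's Wald test called it higher there (6.41, adjusted p = 0.0480), and edgeR did not.

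Per kilobase of exon, Scn3b and Scn2b were also the most abundant channel genes of FC dVenus- cells. Their medians there were 48.8 and 38.9 normalised CPM per kilobase, beside 17.4 for Cacng3 and 14.9 for Scn2a1. In NS dVenus- libraries Cacng3 was at 33.9, above Scn3b at 32.3 and below Scn2b at 58.2. In FC dVenus+ libraries Scn3b was at 7.07 and Scn2b at 6.79, below the 14.4 of Scn2a1. Summed over the 4 beta subunits, the level ranged from 7.66 to 50.4 normalised CPM per kilobase in FC dVenus+ and from 75.4 to 137.7 in FC dVenus- libraries, with no overlap. The sum was lower in dVenus+ cells in 12 of 12 FC, 4 of 4 NS and 3 of 3 HC mice. Its FC dVenus- median was 107.5, most of it from Scn3b and Scn2b, so in FC the sum mostly restates these 2 called genes. Of the 3 beta subunits tested in FC, 2 had a log2 fold change below 0, so the sum does not describe each member.

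**Figure D2:**
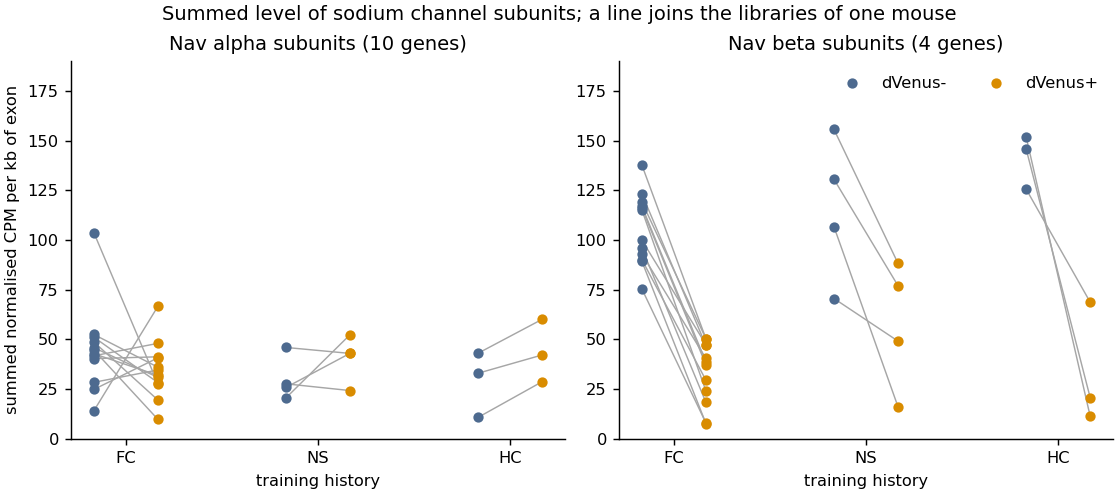
Summed level of the Nav alpha subunits and of the Nav beta subunits in each library, in normalised CPM per kilobase of exon, with a line for each mouse between its dVenus- and dVenus+ values. The beta subunit lines fall from dVenus- to dVenus+ in all 19 mice, while the alpha subunit lines fall in 7 of 12 FC, 2 of 4 NS and 0 of 3 HC mice. Scn2b and Scn3b make up most of the beta subunit sum in FC dVenus- libraries.

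The alpha subunits, which these beta subunits accompany, had no member called by edgeR in any history. Their summed level ranged from 9.76 to 66.6 normalised CPM per kilobase in FC dVenus+ and from 14 to 103.7 in FC dVenus- libraries, with medians of 33.3 and 43.7. In FC, 4 of the 10 had enough counts to be tested. Scn2a1 (the current symbol is Scn2a), which encodes Nav1.2 and was the most abundant of them, ranged from 10.44 to 382.5 normalised CPM in FC dVenus+ libraries, with a median of 183.2, and from 59.21 to 305.5 in dVenus- libraries, with a median of 190.3. Its log2 fold change was 0.17 (SE 0.44, edgeR adjusted p = 0.886), and with library totals in place of TMM it was -0.254.

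Scn1a, which encodes Nav1.1, a channel known for its role in fast-spiking interneurons, ranged from 0.1262 to 169.5 normalised CPM in FC dVenus+ libraries, with a median of 6.783, and from 0.875 to 259.3 in dVenus- libraries, with a median of 49.26. It was lower in dVenus+ cells in 10 of 12 mice, at a log2 fold change of -1.70 (SE 0.76, unadjusted p = 0.0318 and adjusted p = 0.224 by edgeR), which did not pass. By DESeq2's Wald test it was called (-1.75, adjusted p = 0.0478). Its highest value was in the dVenus- library of mouse 10, the library with the highest interneuron markers (Gad1 at 1719 normalised CPM). Without mouse 10 the log2 fold change was -1.71 (edgeR adjusted p = 0.318). In NS it was 1.27 (edgeR adjusted p = 0.769), and the test of the difference between FC and NS gave -3.01 (SE 1.29, unadjusted p = 0.0268 and adjusted p = 0.590 by edgeR). Scn3a and Scn8a, which encode Nav1.3 and Nav1.6, had log2 fold changes of -1.02 (edgeR adjusted p = 0.311) and -0.55 (edgeR adjusted p = 0.569) in FC, each lower in 9 of 12 mice.

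The sum of the granule cell markers had the same direction as the sum of the beta subunits. In FC both the sum of the 7 markers and that of the beta subunits were lower in dVenus+ libraries in 12 of 12 mice. Whether their levels go together over mice was not tested, and neither was the part of the markers in the result. The granule cell markers ranged from 73.1 to 1224 normalised CPM in FC dVenus+ and from 656.8 to 2604 in FC dVenus- libraries. Of the other cell types, the oligodendrocyte markers ranged from 136.8 to 2978 and from 203.2 to 4361, the astrocyte markers from 1.77 to 757.7 and from 2.74 to 721.7, and the CA pyramidal cell markers from 0 to 47.7 and from 0.166 to 84.9. Pecam1, a defining marker of endothelium, was at 0 in all FC libraries, and the endothelial markers had a median of 0 in both FC groups.

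The FC libraries fall into 3 series of sample ID numbers, of 6, 4 and 2 mice, and the NS and HC libraries share another. The labels do not say what the series stand for. For FC, the study's methods report 3 separate experiments with the same numbers of mice. In the series of 6 mice Scn3b was called (log2 fold change -2.91, edgeR adjusted p = 0.0307) and Scn2b had -2.24 (edgeR adjusted p = 0.250). In the series of 4 mice the values were -2.10 (edgeR adjusted p = 0.450) for Scn3b and -2.93 (edgeR adjusted p = 0.320) for Scn2b. The direction was thus the same within each of these series. Leaving out each mouse in turn kept both genes called, with adjusted p-values from 0.000728 to 0.00409 for Scn3b and from 0.00429 to 0.0156 for Scn2b by edgeR.

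**Figure D3:**
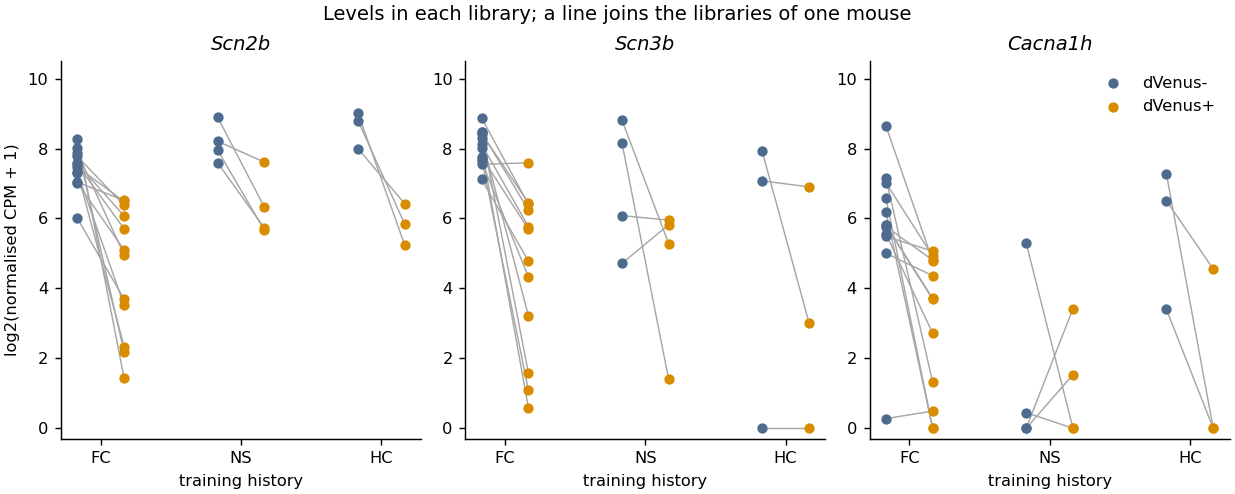
Level of Scn2b, Scn3b and Cacna1h in each library, as log2 of normalised CPM plus 1, with lines joining the libraries of a mouse. In FC, Scn2b is lower in dVenus+ in 12 of 12 mice, and Scn3b and Cacna1h in 11 of 12 each.

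Among the calcium channel pores, Cacna1h was the called gene. It encodes Cav3.2, a T-type channel known to contribute to burst firing, and lies on chromosome 17 from 25374285 to 25433783 on the minus strand of GRCm38. In FC mice it ranged from 0 to 32.46 normalised CPM in dVenus+ libraries, with a median of 12.0, and from 0.2096 to 399.7 in dVenus- libraries, with a median of 55.05. The groups overlapped, and the dVenus+ library was lower in 11 of 12 mice. In the exception, mouse 9, both values were close to 0 (0.4065 and 0.2096). Cacna1h was 5.93-fold lower in dVenus+ cells (log2 fold change -2.57, SE 0.65, edgeR adjusted p = 0.0211).

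This call was less firm than those of the beta subunits. It was lost without mouse 3 (log2 fold change -2.34, edgeR adjusted p = 0.0505) and without mouse 12 (-2.36, edgeR adjusted p = 0.0604). It was also lost without mice 5, 7 and 14 (-2.11, edgeR adjusted p = 0.0538) and with edgeR's older quasi-likelihood method (-2.75, adjusted p = 0.169). Within the series of 6 mice the log2 fold change was -2.25 (edgeR adjusted p = 0.387) and within that of 4 mice -2.90 (edgeR adjusted p = 0.405). Its direction was the same in each of these.

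In the 3 HC mice Cacna1h was at 22.49, 0 and 0 normalised CPM in dVenus+ libraries and at 89.96, 153.3 and 9.534 in dVenus- libraries, lower in 3 of 3 mice (log2 fold change -4.31, SE 2.04, edgeR adjusted p = 0.717). DESeq2's Wald test called it in HC (-7.92, adjusted p = 0.00421), and by edgeR the value went from -3.18 without mouse 16 to -11.1 without mouse 15. In NS the gene was near 0 in most libraries, at 1.887, 0, 9.683 and 0 in dVenus+ and at 0, 0.361, 0 and 38.34 in dVenus- libraries, and was not tested. The difference between FC and NS was -2.95 (edgeR adjusted p = 0.782) and that between FC and HC was 1.48 (edgeR adjusted p = 0.887). An exon of Cacna1h overlaps the opposite-strand gene Tpsg1, which had 0 counts. The other T-type channel tested, Cacna1i (Cav3.3), had a log2 fold change of 1.41 in FC and was not called.

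The 3 Cav2 genes were all tested in FC, and none was called by edgeR or DESeq2. Cacna1e, which encodes the R-type channel Cav2.3 and was the most abundant Cav2 gene per kilobase, ranged from 97.32 to 651.2 normalised CPM in FC dVenus+ libraries, with a median of 311, and from 141.3 to 1010 in dVenus- libraries, with a median of 327.5. Its log2 fold change was -0.25 (SE 0.31, edgeR adjusted p = 0.749), the smallest SE of the genes described here in full. Cacna1a, which encodes the P/Q-type channel, had 0.39 and Cacna1b, the N-type channel, had -1.27 (edgeR adjusted p = 0.324).

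Of the L-type channels, Cacna1d (Cav1.3) was the most abundant per kilobase and ranged from 0 to 58.18 normalised CPM in FC dVenus+ libraries, with a median of 27.31, and from 0 to 114.6 in dVenus- libraries, with a median of 45.51. It did not pass the test (log2 fold change -0.86, SE 0.80, edgeR adjusted p = 0.633). Its exons overlap those of Chdh on the other strand, and reads of a library that does not mark strand cannot be told apart there. Cacna1c (Cav1.2) had a log2 fold change of 0.49 in FC. In NS its dVenus+ levels lay above all dVenus- levels, as did those of 3.13% of the genes tested, and it was not called.

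**Figure D4:**
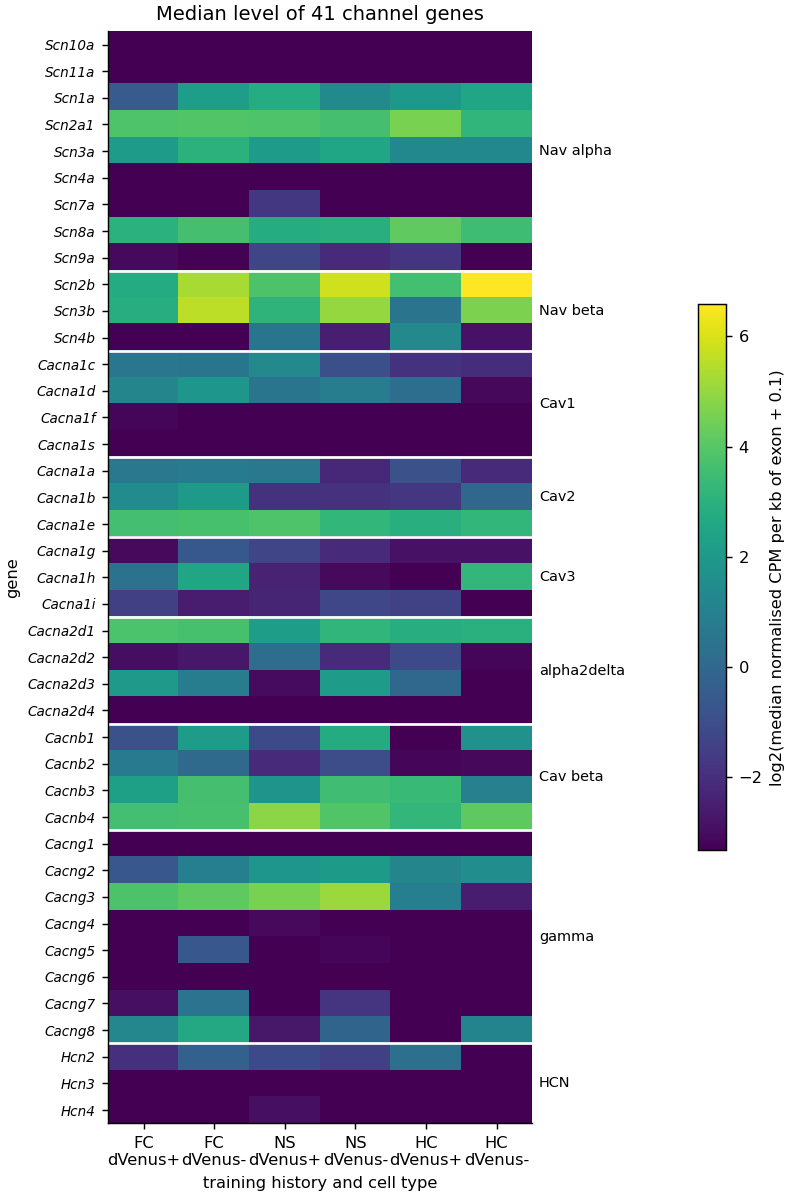
Colour map of the median level of 41 of the 44 genes (rows, by class) in the 6 groups of libraries (columns), as log2 of normalised CPM per kilobase of exon plus 0.1, where dark is low and yellow is high. Scn3b (48.8 against 7.07 before the log) and Scn2b (38.9 against 6.79) are brighter in FC dVenus- than in FC dVenus+, while Scn2a1 (14.9 against 14.4) has close values.

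The alpha2delta and Cav beta subunits, which carry the calcium channel pore to the membrane, had no member called by edgeR in any history. DESeq2's Wald test called Cacnb1 lower in FC (-2.58, adjusted p = 0.0348). Cacna2d1 (alpha2delta1, a binding site of gabapentin) ranged from 68.87 to 386.5 normalised CPM in FC dVenus+ libraries, with a median of 166.9, and from 45.29 to 284.9 in dVenus- libraries, with a median of 161.4 (log2 fold change 0.34, SE 0.36, edgeR adjusted p = 0.699, and -0.0548 with library totals in place of TMM). Cacnb4, the most abundant Cav beta subunit, ranged from 4.024 to 400.5 in FC dVenus+ libraries, with a median of 109.9, and from 58.45 to 196.3 in dVenus- libraries, with a median of 115.7 (log2 fold change -0.25, SE 0.51, edgeR adjusted p = 0.856). The dVenus+ libraries spread more widely on both sides. Cacnb3 had a log2 fold change of -1.56 and was lower in 10 of 12 FC mice (unadjusted p = 0.0503 and adjusted p = 0.282 by edgeR). Cacnb1 had -1.50 and Cacnb2 0.45.

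Cacna2d3, the alpha2delta3 subunit, differed in pattern between histories, with wide spread. In NS mice 18 to 21 its counts were 1, 2, 0 and 1 in dVenus+ libraries and 309, 17, 732 and 369 in dVenus- libraries. The dVenus- level was above that of every dVenus+ library, as was so for 2.85% of the genes tested in NS, at an unadjusted p of 0.0129 and an adjusted p of 0.510 by edgeR. In the 3 HC mice its counts were 28, 0 and 170 in dVenus+ libraries and 0 in each dVenus- library. Against a floor of 3 counts a library, its mean level was 27.0-fold higher in dVenus+. That value rests on 2 mice and depends on the floor, and the gene was not tested in HC. In FC it had a log2 fold change of 1.47 and was higher in dVenus+ cells in 8 of 12 mice (edgeR adjusted p = 0.381). The difference between FC and NS was 8.83 on the log2 scale (SE 2.41, unadjusted p = 0.00123), with an adjusted p of 0.409 by edgeR, and so did not pass. By DESeq2's Wald test both the NS value (-7.37, adjusted p = 0.00141) and this difference (9.08, adjusted p = 0.000116) passed.

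The gamma subunits that were tested in FC, all 3 of them TARPs, had log2 fold changes below 0, and none was called by edgeR or DESeq2. Cacng2 (stargazin) ranged from 0.8785 to 15.28 normalised CPM in FC dVenus+ libraries, with a median of 2.974, and from 1.24 to 31.38 in dVenus- libraries, with a median of 9.973 (log2 fold change -1.44, SE 0.68, unadjusted p = 0.0424 and adjusted p = 0.261 by edgeR). Cacng8 ranged from 0 to 15.42 in FC dVenus+ libraries, with a median of 5.461, and from 0 to 36.96 in dVenus- libraries, with a median of 14.35 (log2 fold change -1.63, SE 0.79, unadjusted p = 0.0479 and adjusted p = 0.277 by edgeR). Neither passed after adjustment, and in both genes the dVenus+ range ended within the dVenus- range. Cacng3 was the most abundant gamma subunit, from 0 to 489.8 in FC dVenus+ libraries, with a median of 39.07, and from 21 to 80.71 in dVenus- libraries, with a median of 48.33 (log2 fold change -0.37, SE 0.58, edgeR adjusted p = 0.809).

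No HCN channel was called by edgeR in any history. Hcn2 ranged from 0 to 2.486 normalised CPM in FC dVenus+ libraries, with a median of 0.5112, and from 0 to 12.35 in FC dVenus- libraries, with a median of 2.287, lower in dVenus+ cells in 9 of 12 mice and with too few counts to be tested. In NS mice 18 to 21 it was at 1.348, 0.5954, 1.009 and 7.473 in dVenus+ libraries and at 0.7618, 3.971, 0.9507 and 0 in dVenus- libraries (log2 fold change 1.18, SE 1.12, edgeR adjusted p = 0.771). In the 3 HC mice Hcn2 was at 6.309, 3.722 and 1.591 in dVenus+ libraries and at 15.06, 0 and 0 in dVenus- libraries (log2 fold change 0.53, SE 1.77, edgeR adjusted p = 0.949). The groups overlapped in each history. Hcn2 was the most abundant HCN gene per kilobase in FC dVenus- libraries, at a median of 0.716 normalised CPM per kilobase, and Hcn4 had at most 15 counts in any library.

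Genes that work with these channels were taken from 4 lists. Their counts of called genes in FC stand beside 4.35% of all genes called, 2.84% lower and 1.5% higher. Of the 8 partners of sodium channels, 7 were tested in FC and 0 were called, with a median log2 fold change of -0.52. Among them Nedd4l, a ubiquitin ligase of the channel, had -0.97 (edgeR adjusted p = 0.112). Of the 14 partners of calcium channels, 7 were tested and 0 were called (median -0.76), with the calmodulin genes Calm2 and Calm3 at -0.76 and -0.92 (edgeR adjusted p = 0.0636 and 0.0690). Of the 4 HCN partners, Pex5l, which governs the trafficking of HCN channels, was tested and not called (0.43, edgeR adjusted p = 0.837).

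The list of 17 leak and intracellular calcium channel genes had 13 tested in FC and 2 called, both lower, beside 2.84% of all genes called lower. With 13 genes the share is imprecise. Ryr1, a ryanodine receptor that releases calcium from the endoplasmic reticulum, ranged from 0 to 28.36 normalised CPM in FC dVenus+ and from 2.582 to 278.6 in FC dVenus- libraries and was lower in 11 of 12 mice (log2 fold change -3.74, SE 0.84, edgeR adjusted p = 0.00759). Ryr1 went the other way in 3 of 4 NS and 2 of 3 HC mice (log2 fold changes 3.71 and 4.25, edgeR adjusted p = 0.638 and 0.786). The difference was -7.97 between FC and NS and -7.94 between FC and HC, and neither passed (edgeR adjusted p = 0.489 and 0.481). Orai2, a pore subunit of store-operated calcium entry, ranged from 1.49 to 155.8 and from 79.26 to 296.3 in FC, also lower in 11 of 12 mice (log2 fold change -1.86, SE 0.51, edgeR adjusted p = 0.0350). It was lower in 3 of 4 NS and 3 of 3 HC mice too. In FC Stim2, a calcium sensor of that entry, had -1.90 (edgeR adjusted p = 0.0611), and the sodium leak channel Nalcn had -1.59 (edgeR adjusted p = 0.256). In NS and HC, 0 genes of the 4 lists were called by edgeR, beside 0.0489% and 0% of all genes.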

How the data were processed

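The authors deposited counts per gene for each library. Per the labels and the study's methods, RNA was amplified by Smart-seq2 and tagmented by Nextera XT, without strand marking. Reads were aligned to mm10 by tophat2 and uniquely aligned reads were counted on NCBI genes by htseq-count. The 5 entries that name no gene, of which reads outside genes came to 16.4% to 59.7%, were left out. Another deposited table with part of these counts was not used.

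The counts were fitted with edgeR 4.0.16 in R 4.3.3 (glmQLFit, glmQLFTest, two-sided, TMM, mouse as block), separately in FC, NS and HC, on genes that reached 10 counts in 12, 4 and 3 libraries or more. Differences between histories came from 1 fit of genes that reached 10 counts in 3 libraries or more. Alternatives were DESeq2 1.42.0, other filters, other scaling, leaving out each mouse, sample ID series and sign-flip permutations over mice. The fits were tested on simulated data with known changes. At a true log2 fold change of 2 in size, the FC fit recovered 19 of 90 changed genes. The NS fit recovered 0 of 86 and the HC fit 0 of 85. At a size of 3, recovery was 51 of 102 for FC, 2 of 89 for NS and 3 of 95 for HC. False calls came to 3, 1 and 0 in the same order. Gene positions and exon lengths are those of GENCODE M21 (GRCm38), and promoters are RefSeq's (GRCm38.p6).

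Groups and mice came from titles and characteristics. In 10 NS or HC samples the description names a different sample, and the description was left aside. The mouse block follows from both libraries coming from 1 animal. As a check, how far each departed from its group mean was correlated within mouse over genes, with a median r of 0.0492 (FC), -0.0151 (NS) and 0.0238 (HC). P-values measure the spread between mice. The channel genes, the lists and the tests were chosen with earlier results of these data known. Full values are given for genes called in any history, for those with an unadjusted p under 0.05 in FC and for the most abundant gene per kilobase of each class in FC dVenus- libraries. Other genes of these classes were named after their values were seen. Of the 44 genes, 3 are not reported here by name, while counts and sums over genes hold them.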

Additional observations from a re-analysis of the deposited data

Results flagged for a closer look

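In groups of 4 libraries, a highest or lowest value that stands far from the rest was looked for in the genes described in full. Of 26 groups checked, 4 had such a value. A chance rate of about 1 in 20 groups need not hold for skewed levels near 0 such as these, so no excess is read from the 4. Cacna1h was at 38.34 normalised CPM in the NS dVenus- library of mouse 21, with the others at 0, 0 and 0.361. Hcn2 was at 7.473 in the NS dVenus+ library of mouse 21, with the others at 0.5954, 1.009 and 1.348. Cacna2d1 was at 207.8 in the NS dVenus+ library of mouse 19, with the others at 51.21, 53.25 and 57.9. Cacng8 was at 9.28 in the NS dVenus+ library of mouse 20, with the others at 0, 0 and 0.2695.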

How the results depend on the processing

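Scn2b and Scn3b were lower in dVenus+ cells of FC mice under every alternative run. By DESeq2's Wald test 6 channel genes were called in FC, 1 in NS, 2 in HC, 3 in the difference of FC and NS and 2 in that of FC and HC. Of all genes, that test called 1651 of 9709, 671 of 8187, 625 of 7588, 1203 of 14075 and 1573 of 14075 in the same order. Within sample ID series 1 was called in the series of 6 mice and 0 in that of 4. Leaving out each mouse in turn gave 2 to 4 in FC and 0 in the other comparisons. Without the replicate block, the number of channel genes called was 3 in FC and 0 in each other comparison. The sign-flip test called 3 in FC and 0 in NS, where 4 mice cannot give a p below 0.125, and was not run in HC. Added after seeing the data, edgeR's older method called 2 channel genes of 137 genes in FC, library totals without TMM called 3, and leaving out mice 5, 7 and 14 called 2. With library totals the median log2 fold change of all genes went from -0.11 to -0.46 in FC, from 0.08 to -0.47 in NS and from 0.02 to -0.81 in HC, and that of the channel genes to -0.75, 0.15 and -0.80. Values that changed sign were those of genes not called by edgeR in the comparison as reported: in FC, Cacnb4 without the replicate block (0.174, and -0.515 to 0.0297 leaving out each mouse), Cacng3 without the block (0.703) and in the series of 6 mice (0.445), Cacna1d in the series of 6 mice (0.137), Scn1a in that of 4 mice (0.724), Scn2a1 with library totals (-0.254), sign-flip (-0.342), without mice 5, 7 and 14 (-0.0893) and leaving out each mouse (-0.0663 to 0.431), and Cacna2d1 with library totals (-0.0548) and sign-flip (-0.0539). In NS it was Cacng2 with library totals (-0.0784), and in HC, leaving out each mouse, Scn1a (-0.729 to 0.0368) and Cacng2 (-1.17 to 0.660). The cause was not tested. Depth limits the sparse genes: 15 of the 44 could not be tested in any history.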

Other observations

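Some channel genes were at 0 in 1 group of libraries. Cacnb1 had no count in the 3 HC dVenus+ libraries and 193, 169 and 0 counts in HC dVenus- libraries. Against a floor of 3 counts a library, its mean level was 18.5-fold lower in dVenus+. Cacng8 had none in the same HC dVenus+ libraries, beside 133, 0 and 51 counts, and was 5.67-fold lower by that floor. Scn9a went the other way, with none in HC dVenus- and 52, 0 and 18 counts in HC dVenus+ libraries (14.9-fold higher). These ratios depend on the floor and do not bound the level, and none of these genes was tested in HC. In the fit of all libraries, 4 further differences between histories had an unadjusted p under 0.05 and did not pass: Cacna2d2 between FC and NS (-5.12 on the log2 scale) and between FC and HC (-6.93), Cacna1d between FC and HC (-5.10) and Scn9a between FC and HC (-10.5). By DESeq2's Wald test the Cacna1d difference between FC and HC passed (-5.12, adjusted p = 0.0370), as did those of Cacng3 between FC and HC (-4.66, adjusted p = 0.0338) and of Cacna1b and Cacng7 between FC and NS (-5.32 and 16.4, adjusted p = 0.0389 and 0.0234). The size of the Cacng7 value has no bound in these data. Cacng7 had no count in any NS dVenus+ library and 0, 17, 0 and 11 counts in NS dVenus- libraries, and edgeR gave 4.08 (SE 7.62, adjusted p = 0.958).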
